A study of Mus musculus with 6 samples.

Results

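A set of 9 genes of the Nodal pathway were followed in mouse embryonic stem cells in which the histone demethylase gene Jmjd1c was targeted by RNA interference: the ligands Nodal and Gdf3, the co-receptor Tdgf1, the type II receptor Acvr2b, the nuclear partner Foxh1, the secreted antagonists Lefty1 and Lefty2, and the intracellular inhibitors Smad7 and Skil. Every probe set that the platform annotation gives to 1 of these genes alone was taken, whatever its signal. This gave 17 probe sets for 9 genes, out of 34945 probe sets for 18193 genes with a single symbol. Of the 17, 16 passed the filter on dim signals described below, among them the brightest probe set of each gene.

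J1 cells, an established mouse embryonic stem cell line of wild-type genotype, were infected with pLKO.1 lentivirus carrying a non-targeting hairpin (shNT) or a hairpin against Jmjd1c, shJmjd1c#3 or shJmjd1c#4, written sh3 and sh4 here. All 3 groups, the control included, carried the vector and were exposed to puromycin at 1.5 ug/ml for 2 days from 1 day after infection, then replated, cultured for 4 days and collected as resistant populations. The culture plates were coated with gelatin, and the medium held 15% serum and leukemia inhibitory factor at 1000 U/ml. Each group had 2 arrays of biotin-labelled RNA, called biological duplicates in the labels, so the comparison rests on 6 arrays, and that number limits its precision.

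Nodal is a secreted ligand of the TGF-beta family. It binds activin receptors together with the co-receptor encoded by Tdgf1 (Cripto), and the receptors phosphorylate Smad2 and Smad3, which enter the nucleus with Smad4 and act on DNA with partners such as Foxh1. Among the genes switched on in this way are Nodal itself and Lefty1 and Lefty2, whose products block Nodal and its co-receptor, so the pathway feeds back on itself in both directions. Embryonic stem cells make Nodal and respond to it, and in the embryo the pathway patterns the epiblast and induces mesoderm and endoderm.

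The deposited signal had been scaled so that the trimmed mean was equal on all arrays, and array medians ran from 69.2 to 81.0. Jmjd1c, the targeted gene, read 72.8% of control at probe set 1426900_at (log2 difference -0.46, limma adjusted p = 0.358), while its other 2 probe sets read higher in the knockdown arrays. The log2 difference was 0.90 at 1448049_at (standard error 0.152, limma adjusted p = 0.117) and 0.73 at 1439998_at (standard error 0.245, limma adjusted p = 0.439). None of the 3 probe sets thus passed in this fit, which covered all 45037 probe sets without the replicate block used below. Jmjd1c was not read in the fit with that block. Actb probe sets at the 3' end read above those at the 5' end, a ratio that rises as RNA breaks down, by 2.70 to 2.77 times in shNT, 2.26 to 2.40 times in sh3 and 2.80 to 2.81 times in sh4. The 18S ribosomal RNA control probe set X00686_M_at read 11323 and 8597 in shNT, 7711 and 6423 with sh3, and 4812 and 5953 with sh4. At X00686_3_at all knockdown arrays were below both controls too, and at X00686_5_at an sh3 array was not. The part of the Actb and 18S readings in the results below was not tested.

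Nodal, Lefty1 and Lefty2 were the members with the largest differences. In each of them all 4 knockdown arrays lay below both control arrays, at 71.7%, 61.1% and 47.2% of the control mean signal. A member whose knockdown arrays all lay below both controls was found 3 times among 9, against 1210 of the 12684 genes tested (9.54%). Without a block for the replicate number, limma called 0 of 9 members at an adjusted p of 0.05 in the mean of both hairpins against shNT, although 3 had an unadjusted p under 0.05, as had 12.3% of all genes tested. In that fit 0.725% of all genes tested were called in either direction. When the replicate number was fitted as a block, these 3 were called lower and none of the other members was called, beside 2.26% of all genes called lower. Those numbers stand in the titles of the samples, and no label says what arrays of 1 number shared.

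Over the 9 members the median log2 difference of the knockdown mean was -0.10, against 0.01 over all genes tested. The difference was negative in 5 of 9 members, and in 48.3% of all genes tested. Differences are on the scale of log2(signal + 16), which understates the change of dim genes. From the most negative value upward, Lefty2 stood at rank 25 of 12684, Lefty1 at 147 and Nodal at 452. In RNA from a whole population, fewer cells with a transcript and less transcript in each cell cannot be told apart.

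**Figure D1:**
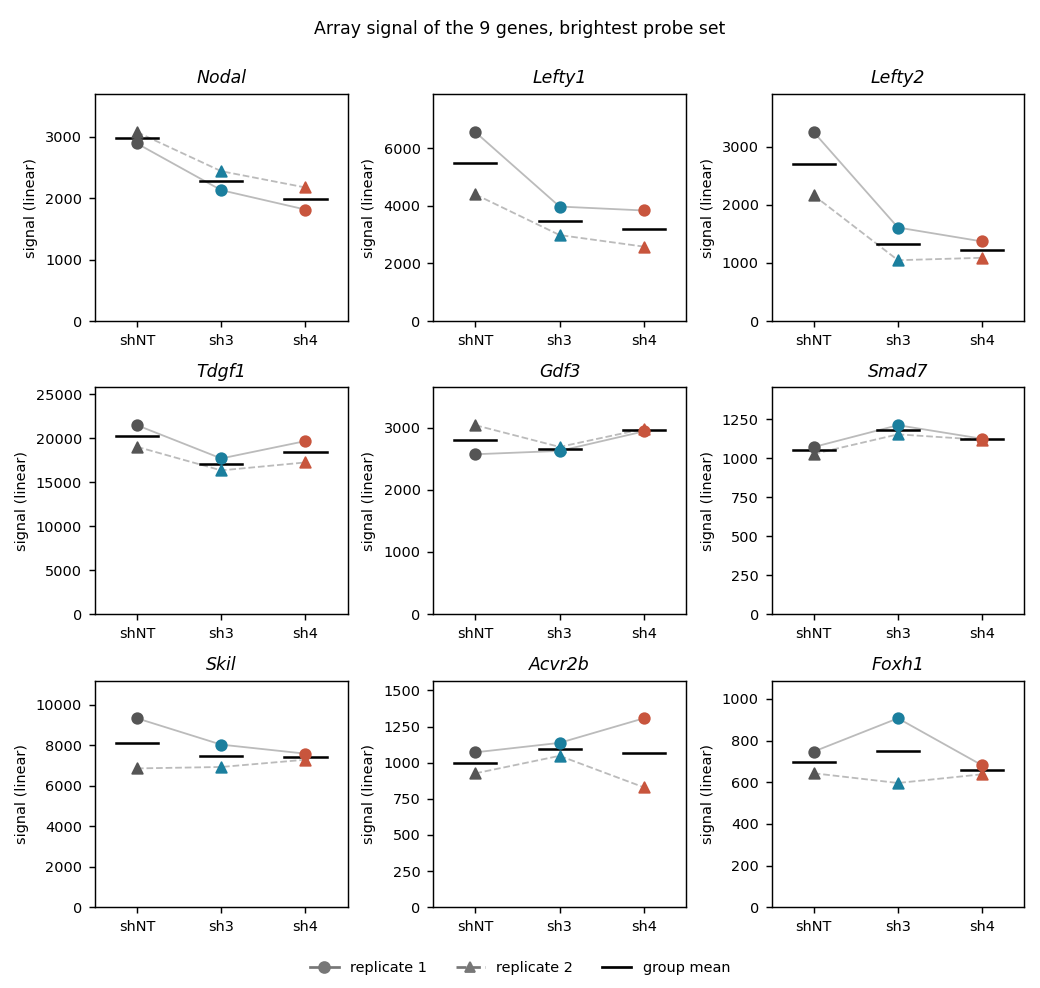
Signal of each member's brightest probe set on every array, on a linear axis from 0 for each gene, with shNT, sh3 and sh4 side by side, lines joining arrays of the same replicate number and short bars at the group means. For Nodal, Lefty1 and Lefty2 the 4 knockdown arrays lie below both shNT arrays, at 71.7%, 61.1% and 47.2% of the control mean.

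Nodal, the ligand at the head of the pathway, read 2888 and 3073 on the shNT arrays, 2129 and 2437 with sh3, and 1813 and 2172 with sh4 (probe set 1422058_at). The highest knockdown array was thus an sh3 array, and it stood below the lower control. The control mean was 2981 ± 131 (SD, n = 2) and the mean of the 4 knockdown arrays was 2138 ± 256 (SD, n = 4, from 2 hairpins). Nodal differed by -0.48 on the log2 scale, with a standard error of 0.117 and a 95% interval from -0.75 to -0.22, and the limma adjusted p was 0.142. With the replicate block its standard error was 0.0870, its adjusted p was 0.00847, and Nodal fell in that fit.

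The other Nodal probe set, 1422057_at, was dimmer. It read 151 and 265 in shNT, 141 and 205 with sh3, and 96.1 and 106 with sh4. Here the control arrays were far apart and the sh3 arrays overlapped them, while both sh4 arrays lay below. Its log2 difference was -0.55 with a standard error of 0.291, and its 95% interval, from -1.21 to 0.11, included 0. The estimate depended on which control was kept: it was -0.93 without shNT replicate 1 and -0.17 without shNT replicate 2.

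The DNA just upstream of Nodal and Tdgf1 is shown because Smad and Foxh1 proteins bind short motifs in the control regions of their targets. Both windows are the 250 bases before the RefSeq start on build GRCm38.p6, printed in the direction of the gene, with any SMAD box (CAGAC or its reverse complement) in capitals. The Nodal window is chr10:61417722-61417971, plus strand, and the Tdgf1 window is chr9:110946159-110946408, minus strand.
Nodal: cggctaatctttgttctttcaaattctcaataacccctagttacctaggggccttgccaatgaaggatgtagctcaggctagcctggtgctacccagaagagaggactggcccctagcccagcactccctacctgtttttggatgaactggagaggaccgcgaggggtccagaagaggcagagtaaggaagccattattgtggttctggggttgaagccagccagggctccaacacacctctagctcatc
Tdgf1: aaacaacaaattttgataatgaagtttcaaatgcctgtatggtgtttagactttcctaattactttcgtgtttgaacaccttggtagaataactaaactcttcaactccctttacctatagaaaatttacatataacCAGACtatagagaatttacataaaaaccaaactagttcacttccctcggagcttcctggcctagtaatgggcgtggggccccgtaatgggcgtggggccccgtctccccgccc
The Nodal window held no SMAD box, and the Tdgf1 window held 1, whose first base is 113 bases before the start. A SMAD box was found on either strand in 42.2% of 32851 RefSeq windows of this length, so it is common by its letters alone. The FOXH1 core AATCCACA (0.718% of windows), its form with a free base AATNCACA (3.18%) and the SMAD palindrome GTCTAGAC (0.167%) had no match on either strand in these windows. Of the other members, only the window of Acvr2b was read, and it held 1 SMAD box on the opposite strand. Windows of the remaining members, Smad7 among them, were not read, so these matches do not describe the members as a set. The known control regions of Nodal that carry Foxh1 sites lie in an intron and further upstream, outside this window, and the array data do not bear on them.

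Gdf3, a ligand of the same family that also signals through Tdgf1, was nearly level, signals of 2571 and 3039 in shNT, 2625 and 2690 with sh3, and 2939 and 2980.1 with sh4 (1449288_at). The controls spanned every knockdown array. The log2 difference was 0.00 with a 95% interval from -0.23 to 0.24. A second probe set, 1460057_at, read 714 and 799 in shNT, 752 and 770.3 with sh3, and 865 on both sh4 arrays, with a log2 difference of 0.10 and a standard error of 0.122.

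Lefty1, the first of the secreted antagonists, read 6564 and 4398.5 in shNT, 3976 and 2986 with sh3, and 3840.3 and 2584 with sh4 (1417638_at, its one probe set). Replicate 1 was above replicate 2 in every group, and the gap between the lower control and the highest knockdown array was smaller than the gap between the controls. The means were 5481 ± 1531 (SD, n = 2) in shNT and 3347 ± 671 (SD, n = 4) in the knockdown arrays. On the log2 scale Lefty1 differed by -0.70 with a standard error of 0.206 and a 95% interval from -1.17 to -0.24, and the limma adjusted p was 0.214. With the replicate block the standard error was 0.0798 and the adjusted p was 0.000586, and Lefty1 fell in that fit. Without shNT replicate 1 and with no block the difference was -0.42, and without shNT replicate 2 it was -0.99, so the control arrays set much of its size. With the block the corresponding values were -0.66 and -0.75.

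Lefty2 read 3254 and 2165 in shNT, 1610.3 and 1047 with sh3, and 1370.3 and 1089 with sh4 (1436227_at, its one probe set). Again replicate 1 was the higher in every group, and all 4 knockdown arrays were clear of both controls. The control mean was 2709.8 ± 769.8 (SD, n = 2) and the knockdown mean 1279 ± 263 (SD, n = 4). The log2 difference was -1.07 with a standard error of 0.212 and a 95% interval from -1.54 to -0.59, and the limma adjusted p was 0.0799. It was the smallest adjusted p among the 9 members in that fit. With the replicate block the standard error was 0.100 and the adjusted p was 0.000218, and Lefty2 fell in that fit. Its difference without the block ran from -0.77 without shNT replicate 1 to -1.36 without shNT replicate 2. Lefty1 and Lefty2 are close paralogs, and how far each probe set also binds the other transcript was not tested, so their values may not be independent of each other.

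**Figure D2:**
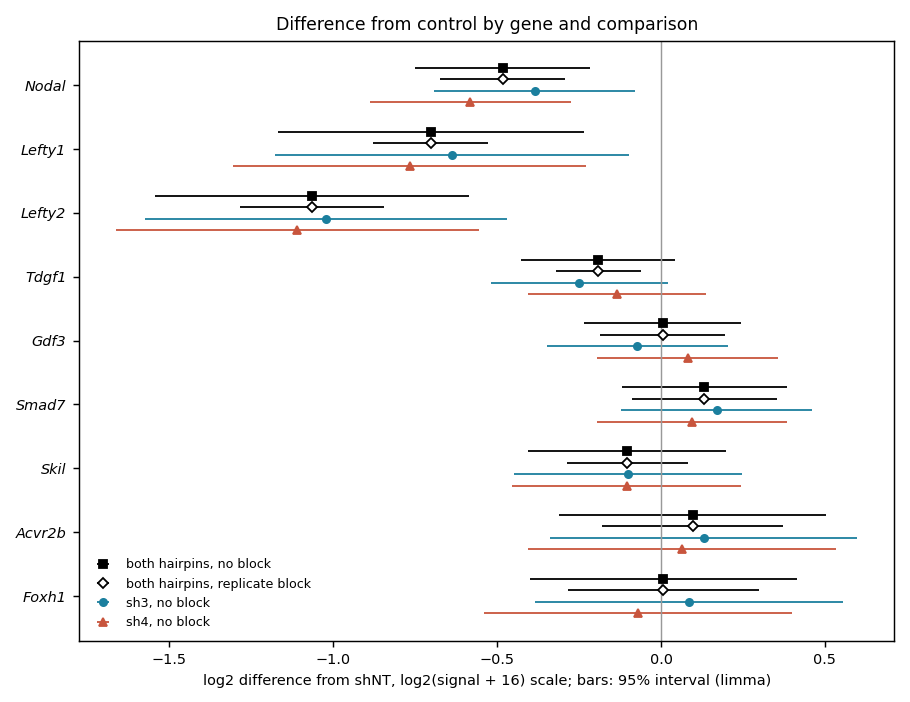
Log2 difference of each member from shNT on the log2(signal + 16) scale, for both hairpins together without and with the replicate block and for sh3 and sh4 alone without it, with unadjusted 95% intervals from limma as bars. All intervals of Nodal, Lefty1 and Lefty2 lie below 0, and for both hairpins together Lefty2 is the lowest member at -1.07; the interval of Tdgf1 lies below 0 only with the block, where its adjusted p was 0.0890.

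The replicate number moved with these values. From replicate 1 to replicate 2, Lefty1 differed by -0.58 in shNT, -0.41 with sh3 and -0.57 with sh4 on the log2 scale. Lefty2 differed by -0.58, -0.61 and -0.33 in the same order. Nodal went the other way, by 0.09, 0.19 and 0.26. Within a number, where each hairpin array is set against the control array of its own number, the Lefty2 difference was -1.01 with sh3 and -1.24 with sh4 in replicate 1, and -1.04 and -0.98 in replicate 2. The Lefty1 difference was -0.72 and -0.77 in replicate 1, and -0.56 and -0.76 in replicate 2. The Nodal difference was -0.44 and -0.67 in replicate 1, and -0.33 and -0.50 in replicate 2. All 12 differences were negative. For Lefty1 and Lefty2 they spread less than the gene's own control arrays did between numbers. For Nodal they spread more than its control arrays, which differed by 0.09.

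Tdgf1, the GPI-linked co-receptor that Nodal and Gdf3 need, read 21473 and 19018 in shNT, 17693 and 16337 with sh3, and 19670 and 17241 with sh4 (1450989_at). The sh3 arrays were below both controls and an sh4 array lay between them. The knockdown mean was 87.6% of control, a log2 difference of -0.19 with a standard error of 0.104, and the limma adjusted p was 0.506. With the replicate block the adjusted p was 0.0890. The 95% interval without the block, from -0.43 to 0.04, holds no fall as large as the Lefty2 estimate.

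Acvr2b, a type II receptor for Nodal and activin, read 1072 and 926 in shNT, 1137 and 1048 with sh3, and 1307 and 829.7 with sh4 (1419140_at). The sh4 arrays held both the highest and the lowest value, so the groups overlapped throughout. Its log2 difference was 0.10 with a 95% interval from -0.31 to 0.50. Its probe set 1439856_at gave 0.30 with a standard error of 0.234, on control arrays at 459 and 242 and knockdown arrays from 401 to 427. The probe set 1440525_at was the single member probe set under the filter, with 5 arrays at 6.50 or less and 35.5 on sh3 replicate 2.

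Foxh1, the forkhead factor that brings Smad2 and Smad3 to Nodal targets, read 747 and 643 in shNT, 907 and 596 with sh3, and 681 and 638 with sh4 (1437779_at). The sh3 arrays lay on both sides of the controls. On the log2 scale it differed by 0.01 with a 95% interval from -0.40 to 0.41. The probe set 1422213_s_at, whose suffix marks probes that may match more than 1 transcript, gave 0.16 with a standard error of 0.192. The dim probe set 1422212_at gave 0.40 with a standard error of 0.675, and its arrays ran from 5.74 to 99.4.

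Smad7, the inhibitory Smad that competes at the activated receptor and is itself induced by the pathway, read 1073 and 1029 in shNT, 1213 and 1154 with sh3, and 1126 and 1119 with sh4 (1423389_at). All 4 knockdown arrays were above both controls, the only member of which this held at its brightest probe set, beside 11.2% of all genes tested. The knockdown mean was 109.8% of control, a log2 difference of 0.13 with a standard error of 0.111, and the limma adjusted p was 0.704 without the block and 0.518 with it. At 1443771_x_at, a probe set of the kind that may share sequence with other transcripts, the sh3 arrays read 619 and 535, above the controls at 456 and 429, and the sh4 arrays read 416 and 390.3, below them.

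Skil, the SnoN corepressor that holds Smad complexes inactive and is both a target and a brake of the pathway, read 9330 and 6855 in shNT, 8030.1 and 6926 with sh3, and 7583 and 7285 with sh4 (1452214_at). The control arrays spanned all 4 knockdown arrays. Skil differed on the log2 scale by -0.10 with a 95% interval from -0.40 to 0.20. The probe set 1422054_a_at gave 0.05 with a standard error of 0.254, on arrays between 114 and 157.

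**Figure D3:**
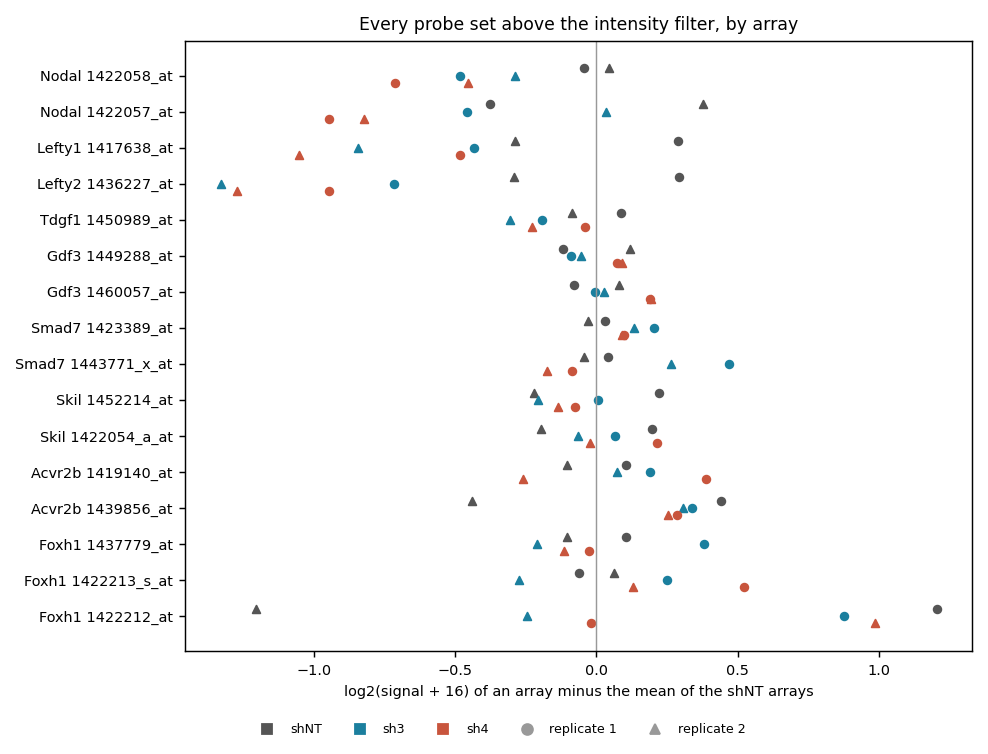
Each of the 16 member probe sets above the filter, by array, as log2(signal + 16) minus the mean of the shNT arrays, with colour for the group and symbol for the replicate. The points of Nodal 1422058_at, Lefty1 and Lefty2 lie left of both control points on all 4 knockdown arrays, and those of the other probe sets mix with the controls, lie above them for Smad7 1423389_at, or part by hairpin for Smad7 1443771_x_at.

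Fitted over all 45037 probe sets without a filter, limma called 0 of the 17 member probe sets in the knockdown mean, with 3 at an unadjusted p under 0.05, beside 8.66% of all probe sets at that p and 0.0422% called. With the replicate block 3 were called, all lower, beside 0.389% of all probe sets called lower. They were Nodal 1422058_at, Lefty1 1417638_at and Lefty2 1436227_at.

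Each hairpin was also set against shNT. These comparisons share the 2 control arrays, so that a control array that is off moves both. Nodal stood at 76.6% of control with sh3 and 66.8% with sh4, Lefty1 at 63.5% and 58.6%, and Lefty2 at 49.0% and 45.4%. Without the block limma called 0 of 9 members with either hairpin, with 3 at an unadjusted p under 0.05 in each (9.74% of all genes with sh3 and 12.1% with sh4), beside 0.071% of all genes called with sh3 and 0.363% with sh4. With the block 2 members were called with sh3, beside 1.4% of all genes called lower, and 3 with sh4, beside 2.22%.

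With sh3 the log2 difference of Lefty2 was -1.02 (adjusted p 0.211, and 0.000997 with the block), that of Lefty1 was -0.64 (0.416, and 0.00351 with the block) and that of Nodal was -0.39 (0.387, and 0.0637 with the block), all by limma. Lefty1 and Lefty2 thus passed with the block and Nodal did not. With sh4 the log2 difference of Lefty2 was -1.11 (adjusted p 0.110, and 0.000567 with the block), that of Lefty1 was -0.77 (0.239, and 0.00106 with the block) and that of Nodal was -0.58 (0.129, and 0.00739 with the block), again by limma. All 3 passed with the block. Among the other 6 members the differences lay between -0.25 (Tdgf1) and 0.17 (Smad7) with sh3, and between -0.13 (Tdgf1) and 0.09 (Smad7) with sh4, and none was called in either fit.

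The hairpins were compared with each other directly. As sh4 minus sh3, the log2 difference was -0.20 for Nodal with a 95% interval from -0.50 to 0.11, -0.13 for Lefty1 with an interval from -0.67 to 0.41, and -0.09 for Lefty2 with an interval from -0.64 to 0.47. Limma called 0 of 9 members in this comparison without the block, as it called 0 of all 12684 genes. In that fit 0 members had an unadjusted p under 0.05, beside 6.10% of all genes. With the block 0 members were called, beside 0.418% of all genes. The block adjusted p was 0.445 for Nodal, 0.609 for Lefty1 and 0.816 for Lefty2. That Nodal passed with sh4 and not with sh3 is therefore not a shown difference between hairpins, and the width of the intervals leaves room for differences of either sign.

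The pathway around the members was covered by 6 lists of genes by role, 48 genes in all, of which 44 had a probe set of their own and 37 were bright enough to be tested. Limma called 0 of the 37 without the block, beside 0.725% of all genes, with 9 at an unadjusted p under 0.05, beside 12.3%. With the block 3 were called higher, beside 3.33% of all genes called higher, and 1 lower, beside 2.26%. Their median log2 difference was 0.02, against 0.01 over all genes tested. In 6 of the 37 all knockdown arrays lay below both controls, and in 7 all lay above, beside 9.54% and 11.2% of all genes tested.

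Of 6 ligand and processing genes tested, none was called. Furin, a convertase that matures Nodal, gave a log2 difference of 0.46 (SE 0.176), Inhba, an activin subunit, 0.56 (SE 0.347), and Inhbb, another activin subunit, -0.44 (SE 0.203).

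Of 7 receptors and co-receptors tested, 1 was called higher with the block. It was Tgfbr2, the type II receptor for TGF-beta itself rather than for Nodal, with a mean signal of 74.5 ± 2.87 (SD, n = 2) in shNT and 196 ± 59.8 (SD, n = 4) in the knockdown arrays. Its log2 difference was 1.18 with a standard error of 0.289, and the limma adjusted p was 0.144 without the block and 0.0284 with it. Tgfbr3, a TGF-beta co-receptor, gave 0.69 (SE 0.237), and Cfc1 (Cryptic), the paralog of Tdgf1, gave -0.58 (SE 0.205) with all 4 knockdown arrays below both controls, and neither was called in either fit.

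Of 9 signal transducers and nuclear partners tested, 1 was called lower with the block, the Smad corepressor Tgif1. Its mean signal was 1865 ± 26.6 (SD, n = 2) in shNT and 1433 ± 169 (SD, n = 4) in the knockdown arrays, a log2 difference of -0.38 with limma adjusted p values of 0.275 without the block and 0.0462 with it. Smad3 gave 0.35 (SE 0.128) with all knockdown arrays above both controls, and Drap1, a corepressor that binds Foxh1, gave -0.36 (SE 0.159) with all below.

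Of 7 extracellular and membrane inhibitors tested, 1 was called higher with the block. It was Fst, which encodes follistatin, the activin trap, with 170.0 ± 49.3 (SD, n = 2) in shNT and 308 ± 76.2 (SD, n = 4) in the knockdown arrays. Its log2 difference was 0.80, with limma adjusted p values of 0.275 without the block and 0.0170 with it. Dand5, a secreted Nodal antagonist of the Cerberus family, gave -0.84 (SE 0.349) on means of 75.1 in shNT and 38.5 in the knockdown arrays, and Ltbp1, which binds latent TGF-beta, gave 0.37 (SE 0.224).

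Of 6 intracellular inhibitors tested, none was called, and the differences of Nedd4l, a ubiquitin ligase for activated Smads, Dact2, an inhibitor of Nodal receptors, and Smurf2, a ubiquitin ligase, were -0.29 (SE 0.130), -0.32 (SE 0.151) and -0.18 (SE 0.123).

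Of the 10 target genes on the list only 2 could be tested. Ccn2, a matrix protein gene that responds to TGF-beta and to other pathways, was called higher with the block, with 6078 ± 1019.8 (SD, n = 2) in shNT and 8001 ± 1172 (SD, n = 4) in the knockdown arrays, a log2 difference of 0.39 and limma adjusted p values of 0.325 without the block and 0.0109 with it. Eomes, a T-box factor of the primitive streak, gave 0.38 (SE 0.218) with all knockdown arrays above both controls. Gsc and Fgf8, classical targets in the embryo, did not exceed on any array the highest reading of a bacterial control probe set, 27.8. The lower Lefty1, Lefty2 and Nodal signals therefore stood beside no called fall among other listed target genes, of which few could be measured.

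**Figure D4:**
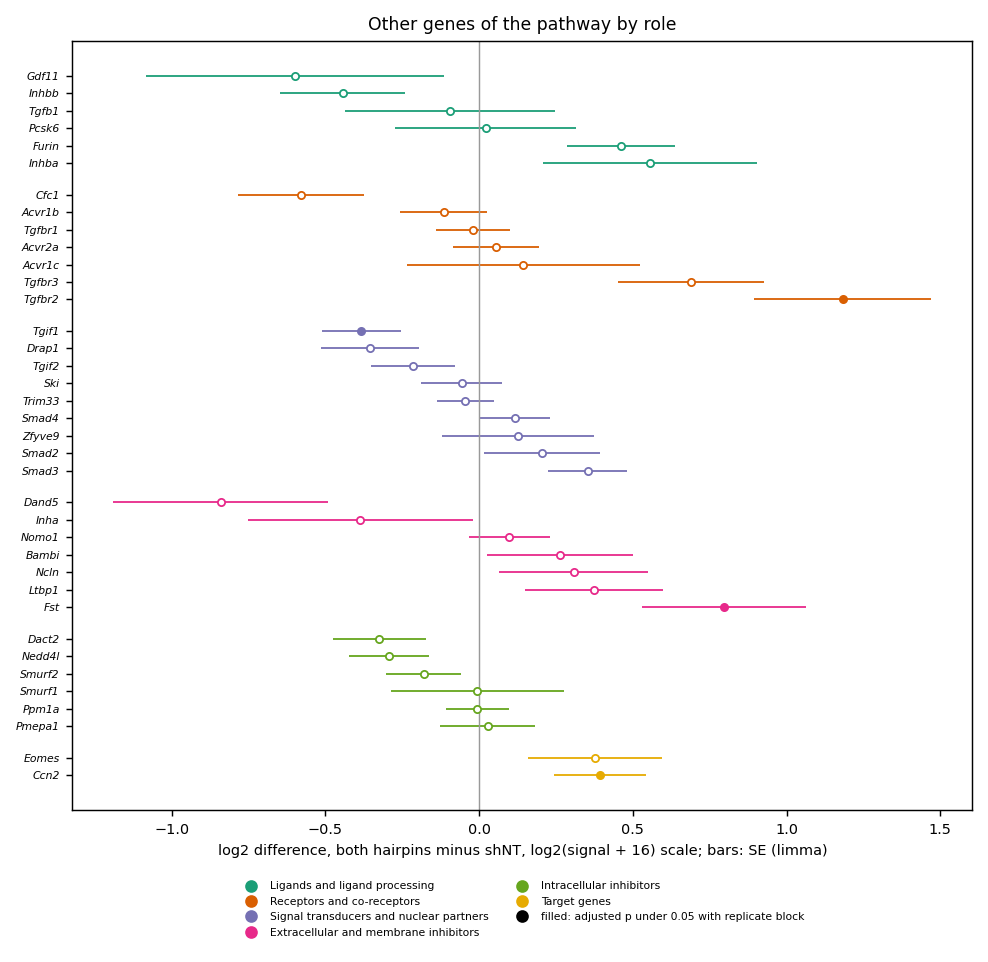
Log2 difference, both hairpins minus shNT, of the 37 other pathway genes tested, grouped by role and coloured by list, with limma standard errors as bars. Filled points passed with the replicate block: Tgfbr2, Fst and Ccn2 on the higher side and Tgif1 on the lower.

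Genes were also ranked by how closely their 6 array values followed those of Nodal, Lefty1 and Lefty2, as the root mean square difference of log2(signal + 16) after each gene was centred on its own mean. Genes with RIKEN, Gm or LOC symbols were left out when the nearest genes were named, and were kept for the places given below. Nearest to Nodal were Cth, a cysteine synthesis enzyme, at 0.0466, Thumpd2 at 0.0543 and Plxdc1 at 0.0630. Cth read 3023 and 3221 in shNT, 2125 and 2418 with sh3, and 1779.7 and 2083 with sh4, a set of values that follows Nodal array by array. Nearest to Lefty1 were Smox, spermine oxidase, at 0.0826, Trim7 at 0.0921 and Adcy9, an adenylate cyclase, at 0.106. Nearest to Lefty2 were Fermt3, a kindlin, at 0.155, Cds1, a CDP-diacylglycerol synthase, at 0.164 and Tmem191c at 0.193. Lefty2 lay at 0.195 from Lefty1, place 40 among the genes nearest to Lefty1. Nodal lay at 0.369 from Lefty1, place 1904 among the genes nearest to it, and at 0.445 from Lefty2, place 770. With 6 arrays in 3 groups, such likeness is a description of these arrays.

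Markers of the cell state and of other cells were read on the same arrays. Of 10 embryonic stem cell markers none was called without the block and 6 were called lower with it, beside 0.725% and 2.26% of all genes, with a median log2 difference of -0.32. Pou5f1 stood at -0.04, Nanog at -0.40, Klf4 at -0.55 and Esrrb at -0.77, the last 3 called with the block. The summed signal of the 10 ran from 96230 to 123001 in shNT, 83348 to 91727 with sh3 and 86861 to 96347 with sh4. Without its brightest gene, Dppa5a, the sum ran from 69184 to 83422 in shNT, 61512 to 64856 with sh3 and 60032 to 65031 with sh4, so that all knockdown arrays were below both controls. Of 10 primed or formative epiblast markers none was called without the block and 8 were called higher with it, beside 3.33% of all genes called higher. Fgf5 and Pou3f1 were among them at 2.08 and 1.15, and the median was 0.64. Their summed signal ran from 13520.0 to 28273 in shNT, 26350 to 40024 with sh3 and 23855 to 40310.2 with sh4.

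Of 9 primitive endoderm markers tested, 1 was called higher without the block (Col4a1) and 2 with it. Of all genes tested, 0.725% were called in either direction without the block and 3.33% were called higher with it. The median of the primitive endoderm markers was 0.37, with 8 differences positive and 1 negative. Their summed signal ran from 4339 to 4410 in shNT, 5068 to 5513 with sh3 and 7804 to 8063 with sh4. Between 37.8% and 60.4% of that sum on an array was Lamb1, a laminin gene. Without Lamb1 the sum ran from 1748 to 1923 in shNT, 2047 to 2313 with sh3 and 3975 to 5018 with sh4. It still held Col4a1 and Lama1. Among the transcription factors tested, Gata4 at -0.05, Gata6 at 0.15 and Sox7 at 0.37 overlapped the controls, and Sox17 at 0.96 lay above them. Of 10 feeder fibroblast markers tested, 1 was called higher without the block (Col3a1) and 2 with it, beside the same shares of all genes. Col3a1 read 25.6 and 37.6 in shNT, near the bacterial control reading of 27.8. The median of the fibroblast markers was 0.67, and their summed signal ran from 11825 to 13796 in shNT, 11507 to 12485 with sh3 and 11923 to 13080 with sh4. Between 66.2% and 80.7% of that sum on an array was Fn1, a fibronectin gene not particular to fibroblasts, with a log2 difference of -0.24. Without Fn1 the sum ran from 2658 to 2747 in shNT, 3293 to 3415 with sh3 and 4029 to 4109 with sh4, with all knockdown arrays above both controls. Of 4 mesoderm and streak markers tested none was called in either fit, the median was 0.11, and the summed signal ran from 374 to 463 in shNT, 371 to 406 with sh3 and 479 to 555 with sh4. Among these markers Gsc alone stayed at or under the bacterial control on all arrays. The part of these marker differences in the lower Nodal, Lefty1 and Lefty2 signals was not tested.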

How the data were processed

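Total RNA of the 6 samples was hybridized to Affymetrix mouse arrays, 1 array per sample, and each sample was grouped by its hairpin label. The deposited values are signal intensity on a linear scale, made by the authors; the submitters' processing notes name MAS5, and the sources used here give no version. No background correction or normalization was added. Of 45101 probe sets 64 were controls, 34945 had 1 symbol in the platform annotation, 932 had several and 9160 had none. Signals were transformed to log2(signal + 16). Each gene was represented by its probe set with the highest mean, and genes at or above the 40th percentile of probe set means (log2 5.81, or 40.12 in signal) entered the tests, which left 12684.

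The package limma 3.58.1, run in R 4.3.3, gave each of the 3 groups a mean, with variances moderated by empirical Bayes with a trend on intensity (residual df 3, prior df 5.96). Tests were 2-sided, and p-values over the whole table were adjusted by the Benjamini-Hochberg method and read at 0.05, and a second fit covered 45037 probe sets with no filter. The fit over genes, without and with the block described next, was tested on simulated data. The simulated arrays were drawn independently, with no effect shared by a replicate number, so they cannot show how the block acts on paired arrays. The labels call the duplicates biological and independent but describe no separate cultures, so p-values measure only the spread between these samples, which may be technical. "Rose" and "fell" are used of what passed a test.

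Across genes, arrays with the same replicate number departed from their group means together (r from 0.223 to 0.302 in 3 pairs of groups). The numbers in the titles were therefore treated as pairs, which is inferred from these arrays and not stated by a label. With 2 arrays a group, variation shared by many genes gives such correlations, of either sign, even where the numbering is arbitrary. They cannot show pairing by themselves, and the calls of Nodal, Lefty1 and Lefty2 with the block rest on it. The fit with the replicate number as a block had residual df 2 and prior df 9.34.

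The members and gene lists were chosen with earlier results of these data known. All members are named at every probe set, with up to 3 tested genes of smallest p in each role list and the 3 nearest genes to Nodal, Lefty1 and Lefty2; calls with the block, all-array patterns and marker genes named beyond that were chosen after their values were seen. Alternatives were the pseudocount, the filter, quantile normalization, median centring, the choice of probe set, the trend, the block, a single knockdown group and leaving out each array. Promoter windows came from RefSeq on GRCm38.p6 and were read here for 3 of the 9 members.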

Additional observations from a re-analysis of the deposited data

Results flagged for a closer look

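At the Smad7 probe set 1443771_x_at the hairpins stood on opposite sides of the control: both sh3 arrays (619 and 535) read above both shNT arrays (456 and 429), and both sh4 arrays (416 and 390.3) read below them. The log2 difference, sh4 minus sh3, was -0.50 with a standard error of 0.168, and by limma its unadjusted p was 0.0160 and its adjusted p 0.921 over all probe sets, so the difference was tested and did not pass. The brighter Smad7 probe set, 1423389_at, read above both controls with both hairpins.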

How the results depend on the processing

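Without the replicate block, the count of members called in the knockdown mean was 0. It became 1 with median centring (Lefty2 at -1.14, limma adjusted p 0.0382), beside 65 genes called in all. With both hairpins as 1 group it was also 1 (Lefty2, limma adjusted p 0.0438), beside 81 genes called in all. With the replicate block, in which same-numbered arrays are paired, it was 3 in the knockdown mean, 2 with sh3 and 3 with sh4, and the count of member probe sets called was 3, 2 and 3; the block changed no other call of a member. Leaving out each array within the block fit, an alternative chosen after the values were seen, gave 3 to 5 called members; the 5 came without shNT replicate 2, where Skil (-0.26, limma adjusted p 0.0430) and Tdgf1 (-0.20, limma adjusted p 0.0449) were added, on residual df 1.

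Nodal, Lefty1 and Lefty2 were lower in the knockdown mean under all 17 alternatives. Nodal ran from -0.56 to -0.42, Lefty1 from -0.99 to -0.42 and Lefty2 from -1.36 to -0.77, the last 2 ranges set by leaving out the shNT arrays. Median centring, which moved the median of all genes to -0.06, turned Gdf3 to -0.0701 and Foxh1 to -0.068. The probe set Skil 1422054_a_at turned to -0.0154 with quantile normalization and -0.0264 with median centring. Leaving out 1 array at a time also turned the sign of small differences: Acvr2b ran from -0.0652 to 0.26, Foxh1 from -0.14 to 0.15, Gdf3 from -0.12 to 0.12, Skil from -0.33 to 0.12, and, for sh4 minus sh3, Lefty1 from -0.41 to 0.16 and Lefty2 from -0.39 to 0.22. Among probe sets, Acvr2b 1439856_at ran from -0.14 to 0.74, Foxh1 1422212_at from -0.80 to 1.60 and Skil 1422054_a_at from -0.15 to 0.24. The cause of these changes was not tested. Signals near the bacterial control reading of 27.8, such as those of Acvr2b 1440525_at, carry little information on fold.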
